A study of Mus musculus with 2 samples.

Results

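The transcription factor genes Sox9, Sox5 and Sox6 were followed through RNA sequencing of mouse limbs at embryonic day 12.5. They were taken by symbol, and all 3 were found among the 43346 Ensembl genes of the gene tables, with 20 transcripts between them in the transcript tables. The series holds a single group, limb of the strain B6NCrl, with 2 biological replicates. Replicate 1 pooled limbs of 88 embryos and replicate 2 of 68, each of mixed sex, and 10 ng of RNA longer than 200 nt entered each library. The samples analysed here include no treatment, mutant or other age, and forelimbs and hindlimbs are not separated in the labels. The comparisons are therefore between the genes, between their transcripts and between the replicate pools. Nothing in the labels ties a library to 1 limb type or to sorted cells, so every level is an average over all cells of the limb. In such bulk tissue, fewer cells of a type and less RNA per cell cannot be told apart.

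SOX proteins bind DNA through an HMG box, a domain that bends the helix at its binding site. Sox9, of the SoxE group, is required for mesenchymal cells to condense into cartilage models of the limb bones, and it carries its own transactivation domain. Sox5 and Sox6, of the SoxD group, lack such a domain, form dimers through a coiled coil, and act with Sox9 on cartilage matrix genes such as Col2a1 and Acan. In mouse, Sox9 acts first and is needed for Sox5 and Sox6 to be switched on in chondrocyte precursors. Outside cartilage, Sox6 is also known from muscle and red blood cells, and Sox5 and Sox9 from neural crest.

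The stretch of the coding sequence that holds the HMG box is shown for each gene because the comparison of levels below turns on which transcripts carry it. It was located by local alignment of the translated coding sequences and covers 83 codons, or 249 bases, read 5′ to 3′ from the transcripts Sox9-201, Sox5-201 and Sox6-203 of GENCODE M21 (GRCm38). These lie on chromosomes 11, 6 and 7, and capitals mark bases identical in all 3 genes.
Sox9: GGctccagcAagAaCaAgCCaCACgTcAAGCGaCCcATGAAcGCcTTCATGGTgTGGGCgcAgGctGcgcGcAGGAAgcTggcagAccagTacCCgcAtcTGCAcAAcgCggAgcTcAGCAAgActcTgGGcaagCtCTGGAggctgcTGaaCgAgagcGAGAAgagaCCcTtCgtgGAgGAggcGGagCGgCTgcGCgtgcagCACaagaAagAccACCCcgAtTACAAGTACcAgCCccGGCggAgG
Sox5: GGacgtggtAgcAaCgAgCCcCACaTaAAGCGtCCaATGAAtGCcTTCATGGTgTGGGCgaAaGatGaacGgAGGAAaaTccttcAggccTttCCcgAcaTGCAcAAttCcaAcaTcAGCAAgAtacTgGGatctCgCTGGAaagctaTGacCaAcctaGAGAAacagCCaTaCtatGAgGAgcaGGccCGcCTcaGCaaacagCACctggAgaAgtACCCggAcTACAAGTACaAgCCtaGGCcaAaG
Sox6: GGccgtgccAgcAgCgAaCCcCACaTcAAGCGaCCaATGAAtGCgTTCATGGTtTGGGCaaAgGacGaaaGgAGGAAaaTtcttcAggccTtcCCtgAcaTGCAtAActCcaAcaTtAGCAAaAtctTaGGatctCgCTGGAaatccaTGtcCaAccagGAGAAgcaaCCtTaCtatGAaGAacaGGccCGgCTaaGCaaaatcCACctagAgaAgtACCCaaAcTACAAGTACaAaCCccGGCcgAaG
All 3 genes shared 130 of the 249 bases. Sox5 and Sox6 shared 204 bases, and 76 of their 83 codons encoded the same residue. Sox5 and Sox9 shared 152 bases and 42 residues, and Sox6 and Sox9 shared 143 bases and 39 residues. Despite this likeness the tables record little doubt over which of the genes a read belongs to. The deposited posterior standard deviation of the count was 0 for Sox9 and for Sox6 in both libraries, and 1.25 and 1.41 reads for Sox5 in replicates 1 and 2.

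Sox9 was by far the highest of the 3 genes. Sox9 (ENSMUSG00000000567.5, chromosome 11, 112782224 to 112787760, plus strand) was at 208 TPM in replicate 1 and 206 TPM in replicate 2, where TPM is a level scaled by transcript length and library size. Sox5 (ENSMUSG00000041540.12, chromosome 6, 143828425 to 144781977, minus strand) was at 72.2 and 76.3 TPM over all its transcripts. Sox6 (ENSMUSG00000051910.9, chromosome 7, 115470872 to 116038796, minus strand) was at 16.1 and 19.0 TPM. The order of the genes was the same in both libraries, and no library of one gene reached the range of another. Means and standard deviations over the 2 libraries were 207 ± 1.03 TPM for Sox9, 74.2 ± 2.94 for Sox5 and 17.5 ± 2.10 for Sox6.

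The depth behind these levels was large. The libraries held 29810026 and 29938721 expected counts, which are the estimated reads per gene. Sox9 had 15706 and 15705 of them, Sox5 2472 and 2643, and Sox6 1605 and 1876. The deposited interval of the posterior mean level was 198 to 205 TPM for Sox9 in replicate 1 and 197 to 203 in replicate 2. For Sox5 it was 64.1 to 78.0 TPM and 68.1 to 82.3 TPM, and for Sox6 14.6 to 16.6 TPM and 17.3 to 19.6 TPM. The Sox5 interval was the widest of the 3 although its counts exceeded those of Sox6, and the Sox6 intervals of the libraries did not overlap. The same held for 11.3% of 15112 genes with a mean of at least 1 TPM, and 6.25% were higher in replicate 2, as Sox6 was. These intervals belong to the posterior mean, which for Sox9 was 201 and 200.2 TPM and so a little below the TPM value. No source used here states their confidence level.

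Among 21474 protein-coding genes, ranked by mean TPM, Sox9 was number 714, Sox5 number 2313 and Sox6 number 7118. Of the 12702 protein-coding genes at 1 TPM or more in both libraries, 94.4% were below Sox9, 81.8% below Sox5 and 44.0% below Sox6. Within the 20 Sox genes measured, the 3 genes made up 43.9% of the summed TPM in replicate 1 and 42.8% in replicate 2. Sox9 alone was 30.8% and 29.3% of the family sum.

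**Figure D1:**
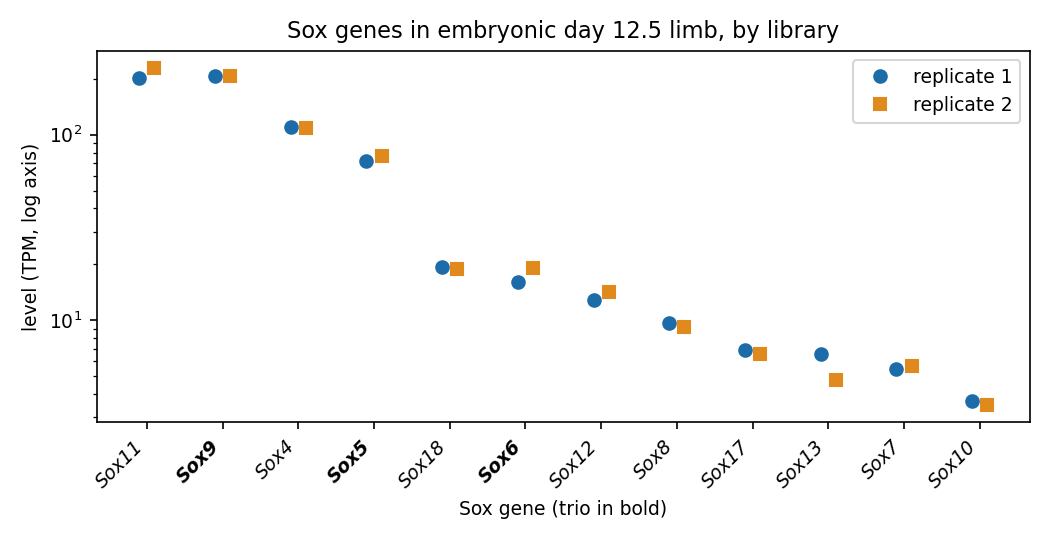
Level in TPM on a log axis for the 12 Sox genes with a mean of at least 1 TPM, with replicate 1 as circles and replicate 2 as squares. Sox9 lies beside Sox11 at the top, Sox5 is the fourth gene and Sox6 lies beside Sox18.

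In the Sox family, Sox9 and the SoxC gene Sox11, which is known from progenitor cells, could not be ordered. Replicate 1 had Sox9 at 208 TPM and Sox11 at 202 TPM, whereas replicate 2 had Sox9 at 206 TPM and Sox11 at 229.8 TPM. Both were above Sox4, at 109 TPM in each library. Sox5 stood between Sox4 and the endothelial gene Sox18. Sox6 and Sox18 changed places between the libraries, with Sox6 at 16.1 and 19.0 TPM and Sox18 at 19.3 and 18.9 TPM. The nearest relatives of the 3 genes were low. The SoxE genes Sox8 and Sox10 were at 9.40 ± 0.33 and 3.57 ± 0.13 TPM (SD, n = 2), and the SoxD gene Sox13 was at 6.59 and 4.76 TPM. Sox10 marks neural crest and its glial progeny. Of the remaining family members at 1 TPM or more, Sox12 was at 13.5 ± 0.93 TPM, Sox17 at 6.71 ± 0.22 TPM and Sox7 at 5.55 ± 0.16 TPM (SD, n = 2).

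Per length, Sox9 exceeded Sox5 by a log2 ratio of 1.48 ± 0.06 (SD, n = 2), or 2.79-fold. It exceeded Sox6 by 3.56 ± 0.18, or 11.8-fold. The log2 ratio of Sox6 over Sox5 was -2.08 ± 0.12. Every difference was many times the spread between the libraries. No p-value is attached to them, since with 2 libraries the smallest one that an exact sign-flip test allows is 0.5.

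The Sox5 level, unlike those of Sox9 and Sox6, rested mainly on transcripts that do not encode the HMG box. Sox9 has 1 transcript, Sox9-201, of 4135 nt. The 5 Sox6 transcripts in the tables all encode the HMG box as annotated in GENCODE M21. No transcript without the box was quantified for Sox9 or Sox6, so their reads could be assigned to no other class. Of the 14 Sox5 transcripts, 5 encode the box and 2 are annotated as coding but stop before it. The other 7 are annotated as processed transcripts or retained introns with no coding sequence. Both coding models without the box stop inside an exon that continues in transcripts with it. They therefore do not show a protein that lacks the HMG box. The transcripts with the HMG box held 10.9 TPM in replicate 1 and 11.8 TPM in replicate 2, or 15.1% and 15.4% of the Sox5 level. The coding transcripts without it held 12.9 and 11.3 TPM, and the noncoding ones 48.3 and 53.3 TPM, or 67.0% and 69.8%. The noncoding class was the highest in both libraries, and the coding classes changed places between them.

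**Figure D2:**
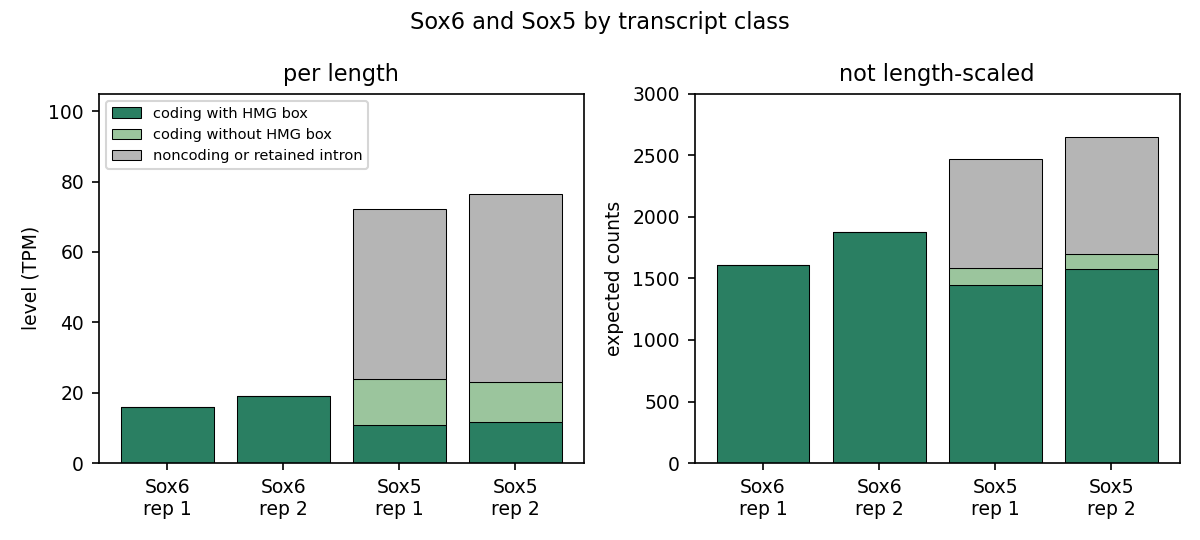
Sox6 and Sox5 by transcript class, per length in TPM (left) and in expected counts without length scaling (right), with 1 bar for each library. The class with the HMG box is 15.1% and 15.4% of the Sox5 level in TPM but 58.3% and 59.5% of its counts.

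Shares of reads differed from these shares per length. The Sox5 transcripts with the HMG box are 6144 to 7243 nt long in the files, whereas the noncoding ones are 351 to 2949 nt and the coding ones without the box 669 and 853 nt. In GENCODE M21, which gave the classes, 2 of the 5 with the box had the same length. Counted as reads and not per length, the HMG-box class held 1442 and 1574 expected counts, or 58.3% and 59.5% of the gene. Across 7541 protein-coding genes with a mean of at least 5 TPM and at least 2 transcripts, the median share of TPM on transcripts not annotated as protein-coding was 9.16%. For Sox5 it was 68.4% over both libraries, and 4.32% of the genes had a share that high or higher.

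Restricted to transcripts that encode the HMG box, a choice made after the transcript values were seen, Sox6 was above Sox5. The restriction removed Sox5 transcripts only, since every quantified Sox6 transcript encodes the box. Sox6 was at 16.1 and 19.0 TPM and Sox5 at 10.9 and 11.8 TPM, with no overlap. The log2 ratio of Sox6 over Sox5 was then 0.62 ± 0.10 (SD, n = 2), against -2.08 over all transcripts. Without length scaling, over all transcripts, it was -0.56. In reads of the HMG-box class the genes were closer, with 1605 and 1876 expected counts for Sox6 and 1442 and 1574 for Sox5. Sox9 stayed on top in each of these counts. Over the HMG-box transcripts it exceeded Sox5 by a log2 ratio of 4.18 ± 0.09, or 18.1-fold. The order of Sox5 and Sox6 in this tissue therefore depended on which Sox5 transcripts were counted.

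Transcript by transcript, the highest Sox5 entry was Sox5-208, a processed transcript of 351 nt with 3 exons. It held 18.3 TPM in replicate 1 and 19.7 TPM in replicate 2, or 25.4% and 25.8% of the gene, from 86.5 and 93.7 expected counts. Its deposited intervals were 12.4 to 23.5 TPM and 13.8 to 25.6 TPM. Next were the retained-intron transcript Sox5-213 (13.6 and 16.2 TPM), the coding transcript Sox5-211, which lacks the box (12.9 and 11.3 TPM) and the retained-intron transcript Sox5-207 (8.21 and 8.16 TPM). Much of these sequences also lies in exons of the 4 transcripts with the HMG box that had reads. The shared part was 86.6% of Sox5-208, 74.2% of Sox5-213, 87.7% of Sox5-211 and 41.3% of Sox5-207. Reads in the shared parts were divided between the transcripts by the quantifier, and the division cannot be checked from these tables.

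Full-length Sox5 was led by Sox5-201, which encodes a protein of 763 residues. It held 4.26 TPM in replicate 1 and 7.42 TPM in replicate 2, with 570.4 and 1000.04 expected counts. The other full-length transcripts went the opposite way. Sox5-205 was at 3.88 and 2.94 TPM, Sox5-202 at 1.90 and 1.43 TPM, and Sox5-214 at 0.88 and 0 TPM. In replicate 1 the deposited intervals of Sox5-201 (1.42 to 5.72 TPM) and Sox5-205 (0.897 to 5.62 TPM) overlapped, so their order there is uncertain. The sum over the class, 10.9 and 11.8 TPM, was steadier than its members, and the deposited intervals of Sox5-201 overlapped between libraries (1.42 to 5.72 and 5.00 to 8.84 TPM). Sox5-204, which encodes the HMG box from the start farthest downstream, was listed at 0 in both libraries, as was Sox5-206. The remaining noncoding transcripts, Sox5-203, Sox5-209, Sox5-212 and Sox5-210, lay between 0.27 and 4.12 TPM.

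**Figure D3:**
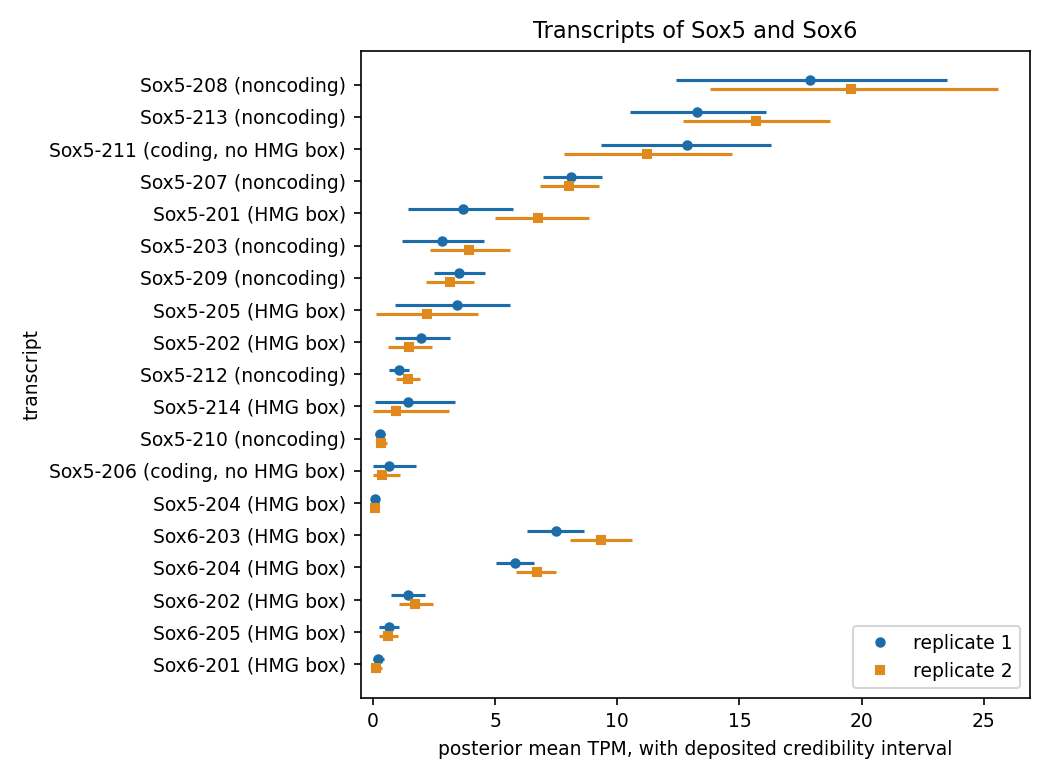
Posterior mean TPM of the 14 Sox5 and 5 Sox6 transcripts, with lines for the deposited credibility intervals, replicate 1 as circles and replicate 2 as squares. Sox5-208, Sox5-213 and Sox5-211 lie highest, and the intervals of the libraries overlap for every transcript drawn.

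Sox6 was divided between 2 main transcripts. Sox6-203, of 2825 nt, held 48.4% of the level in replicate 1 and 50.9% in replicate 2, at 7.77 and 9.69 TPM. Sox6-204, of 8079 nt, held 37.8% and 37.1%, at 6.08 and 7.06 TPM. Per length Sox6-203 was the higher in each library, although in replicate 1 the deposited intervals overlapped (6.32 to 8.65 and 5.03 to 6.58 TPM). In reads the order was the opposite, with 396.7 and 498.4 expected counts for Sox6-203 and 908.3 and 1062.8 for Sox6-204. These transcripts share many exons, and the division of shared reads between them cannot be checked here. Sox6-202 followed at 1.47 and 1.71 TPM, and Sox6-205 and Sox6-201 were below 1 TPM. The deposited intervals overlapped between the libraries for all 20 transcripts of the 3 genes. Of these, 14 had a mean of at least 1 TPM, and among 34788 transcripts at that level 6.51% had intervals that did not overlap, so 0 of 14 is near the background.

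The transcripts start at separate places along 2 very long genes. In Sox5, annotated start sites fell into 4 groups. The levels given are those of the transcripts at each start, and use of the starts themselves was not measured. The farthest upstream, of Sox5-209 and Sox5-212, held 4.75 and 4.73 TPM and no coding transcript. The next, 572.4 kb downstream, held 24.8 and 28.3 TPM and every transcript with the HMG box that had reads. Another, 577.6 kb downstream, held 26.5 and 27.9 TPM, all of it on Sox5-207 and Sox5-208. The last, 834.9 kb downstream, held 16.1 and 15.4 TPM, mostly on Sox5-211. In Sox6 each transcript had its own start. That of Sox6-204 is the first, that of Sox6-202 lies 7.7 kb downstream, and that of Sox6-203 lies 192.6 kb downstream.

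**Figure D4:**
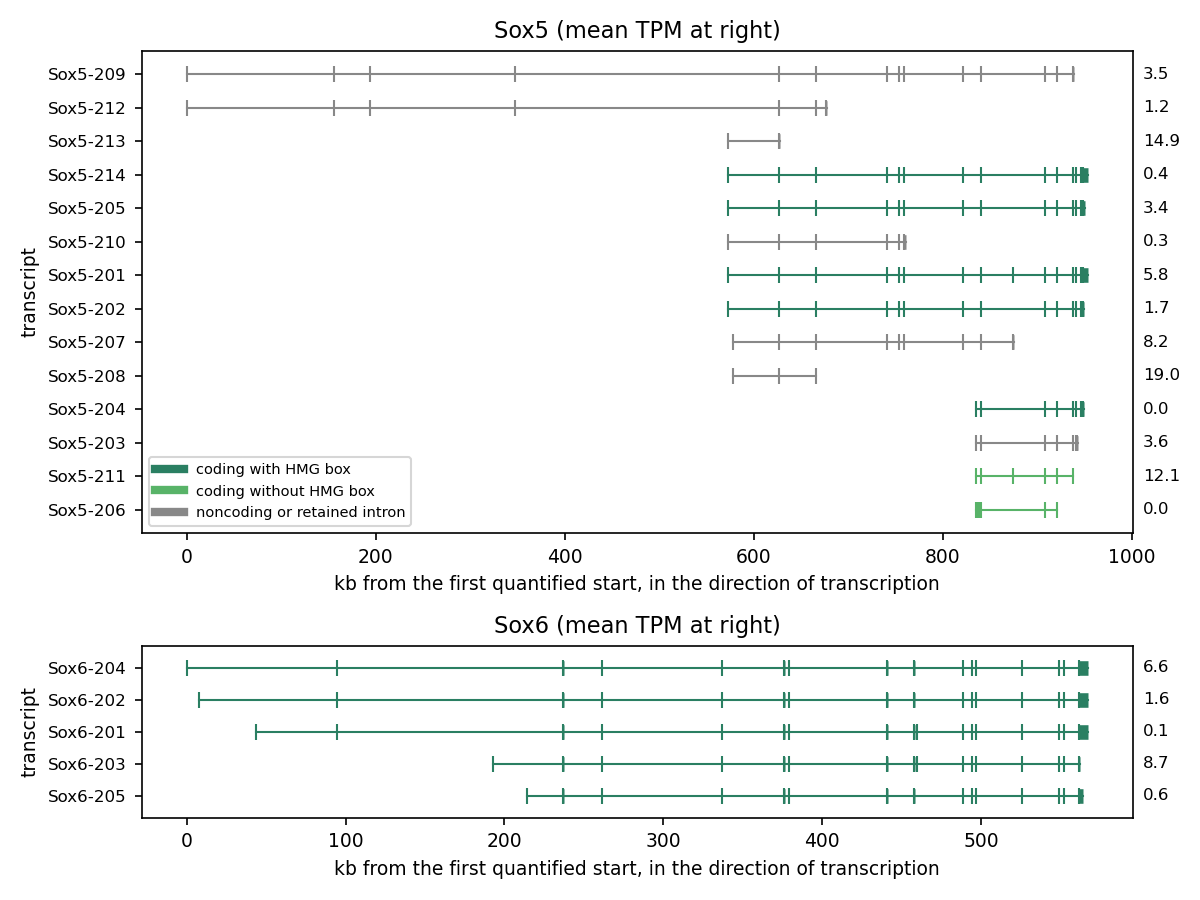
Exons (ticks) and introns (lines) of the Sox5 and Sox6 transcripts, in kb from the first start of a quantified transcript in the direction of transcription, with the mean TPM of both libraries at the right. The full-length coding Sox5 transcripts begin 572.4 kb from the first start, and the highest entry, Sox5-208, starts after them and ends 87.6 kb farther on, with 3 exons.

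Promoter sequences are shown for the annotated starts of the 2 main Sox6 transcripts and for the downstream Sox5 start, because transcript levels differed by annotated start. RefSeq promoters of GRCm38.p6 were matched by symbol for 2 of the 3 genes, Sox5 and Sox6, with 7 start sites. For Sox5 only the downstream start was matched. The Sox5 start that holds every HMG-box transcript with reads had no window. Each sequence is the 250 bases before the start, on the minus strand, 5′ to 3′. Capitals mark a SOX core motif, ACAAT, or its reverse complement ATTGT, searched on both strands with overlaps allowed. Other forms of SOX site were not searched.
Sox6-204 start, chr7:116038745-116038994: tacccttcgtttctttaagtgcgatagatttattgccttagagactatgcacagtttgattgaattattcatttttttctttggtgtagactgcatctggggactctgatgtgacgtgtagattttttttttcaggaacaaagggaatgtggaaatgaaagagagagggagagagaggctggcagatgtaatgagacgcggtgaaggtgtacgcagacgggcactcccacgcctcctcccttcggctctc
Sox6-203 start, chr7:115846141-115846390: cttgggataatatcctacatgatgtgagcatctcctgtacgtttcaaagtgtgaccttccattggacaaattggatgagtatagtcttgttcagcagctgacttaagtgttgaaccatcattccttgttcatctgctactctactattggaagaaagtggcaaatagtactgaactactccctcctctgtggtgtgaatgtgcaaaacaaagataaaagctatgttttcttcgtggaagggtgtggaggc
Sox5 downstream start, chr6:143947107-143947356: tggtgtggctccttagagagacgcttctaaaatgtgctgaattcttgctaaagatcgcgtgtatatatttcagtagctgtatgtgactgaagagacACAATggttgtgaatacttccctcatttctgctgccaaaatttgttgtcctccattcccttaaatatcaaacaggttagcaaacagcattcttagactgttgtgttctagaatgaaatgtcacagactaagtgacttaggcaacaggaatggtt
In this form the motif was absent from both Sox6 windows shown and present at 1 place before the downstream Sox5 start. Its absence does not show that a window lacks a SOX site. Of all 6 Sox6 windows, 3 held it, at 2 places before the Sox6-201 start, 2 before the Sox6-205 start and 3 before a start with no quantified transcript nearby. Among 32851 promoter windows of the same length, 27.7% held it. The windows held 9 CpG pairs before the Sox6-204 start, 2 before the Sox6-203 start and 3 before the Sox5 start, against a median of 6 in all windows. The RefSeq start of the Sox6-203 window lies near, not at, the start of that transcript in GENCODE. Both Sox6 windows overlap an exon of another annotated Sox6 transcript, a retained-intron form. The transcripts annotated at the starts shown had 6.08 and 7.06 TPM for Sox6-204, 7.77 and 9.69 TPM for Sox6-203, and 16.1 and 15.4 TPM for the 4 Sox5 transcripts at its downstream start. Most of that Sox5 level is Sox5-211, of which 87.7% is shared with transcripts that start upstream. These levels therefore do not measure the output of a promoter.

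The surroundings of the genes differed. No gene overlaps Sox9, and no protein-coding gene lies within 1 Mb on its left side. The nearest on the right, Slc39a11, a gene of a zinc transporter, begins 457.1 kb away and was at 14.2 and 15.1 TPM. The highest in that window was Cdc42ep4, at 99.1 and 100.6 TPM. Expressed noncoding genes, chosen after their values were seen, lay closer. BC006965 lies 248 bp from Sox9 on the opposite strand and was at 8.95 and 9.83 TPM, and 2610035D17Rik, 256.1 kb to the right, was at 23.9 and 23.7 TPM. Both differed little between the libraries (log2 ratios, replicate 1 over replicate 2, of -0.02 each).

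Small noncoding genes overlap Sox5 and Sox6, with few reads. Of 7 genes that overlap Sox5, 6 are in the files: Sox5os1, Sox5os2, Sox5os3, Sox5os4, Sox5os5 and Sox5it. None exceeded 0.20 TPM in either library. Sox6os, antisense to Sox6, had 0.33 and 0.83 TPM from 2 and 5 expected counts. No source used here states whether strand was used in counting, so reads of an antisense gene and of its partner could not be told apart. Beside Sox5, the nearest protein-coding genes were Etnk1 (16.4 and 18.7 TPM) on the left and Bcat1 (30.3 and 35.0 TPM) on the right. Beside Sox6, 1110004F10Rik begins 601 bp beyond the annotated gene on the opposite strand and was at 272 and 265 TPM, far above Sox6. On the other side the nearest was Insc (0.93 and 0.77 TPM), and the highest in the window was the ribosomal protein gene Rps13 (708 and 761 TPM).

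Between the replicate pools the 3 genes differed little. Each library was compared on counts scaled by TMM, a factor that balances library composition, with an exact binomial test that covers counting error only and so compares these libraries. Calls needed a Benjamini-Hochberg adjusted p under 0.05 and at least a 2-fold difference. None of the 3 genes was called, where 1.7% of 18580 genes were, 0.727% higher in replicate 1 and 0.969% higher in replicate 2. Sox9 differed by a log2 ratio of 0.01, replicate 1 over replicate 2 (unadjusted 95% interval -0.02 to 0.04, exact binomial adjusted p = 0.725). Sox5 differed by -0.08 (-0.16 to -0.01, exact binomial adjusted p = 0.153). Sox6 was lower in replicate 1, with a log2 ratio of -0.21 (-0.31 to -0.12), which passed the test for counting error without the fold limit (exact binomial adjusted p = 0.000281), as 16.1% of all genes did. That share divides into 8.25% with the higher level in replicate 1 and 7.86% with the higher level in replicate 2. With the spread between libraries estimated from the same data, edgeR's exact test gave an adjusted p of 1 for each of the 3 genes.

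The cartilage genes that the 3 factors are known to act on were mostly higher in replicate 1. Of 19 listed genes, 18 had enough counts, and 17 were higher in replicate 1 past the counting-error test and none higher in replicate 2. Among all genes 8.25% were higher in replicate 1 past the same test. That test passes smaller differences at higher counts, and this share is not matched for counts. Col9a1, for instance, passed at a log2 ratio of 0.12 with 9782 and 9079 expected counts. With the 2-fold limit, 5 of the listed genes were called, all higher in replicate 1, where 0.727% of all genes were. The median log2 ratio of the 18 tested was 0.58, replicate 1 over replicate 2, against 0.00 over all genes tested. The called genes were Snorc (4.51 and 0.84 TPM), Epyc (4.63 and 1.53 TPM), Matn1 (25.3 and 10.2 TPM), Comp (4.34 and 2.01 TPM) and Acan (6.26 and 3.13 TPM), which encode cartilage matrix and surface proteins. Snorc rested on only 32 and 6 expected counts. Col2a1, the main cartilage collagen, was at 453 and 369 TPM, and 2 chains of another cartilage collagen followed, Col9a3 (186 and 167 TPM) and Col9a1 (174.0 and 162 TPM). The lowest, Ucma (0.33 and 0.16 TPM), had too few counts for the test, and Col27a1 was the 1 tested gene that did not pass. The test treats reads as independent and does not cover spread between pools. With a gene-wise spread, edgeR's exact test called 0 of the list at an adjusted p under 0.05, with 8 at an unadjusted p under 0.05. With a spread common to all genes, an alternative added after seeing the data, it called 5.

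**Figure D5:**
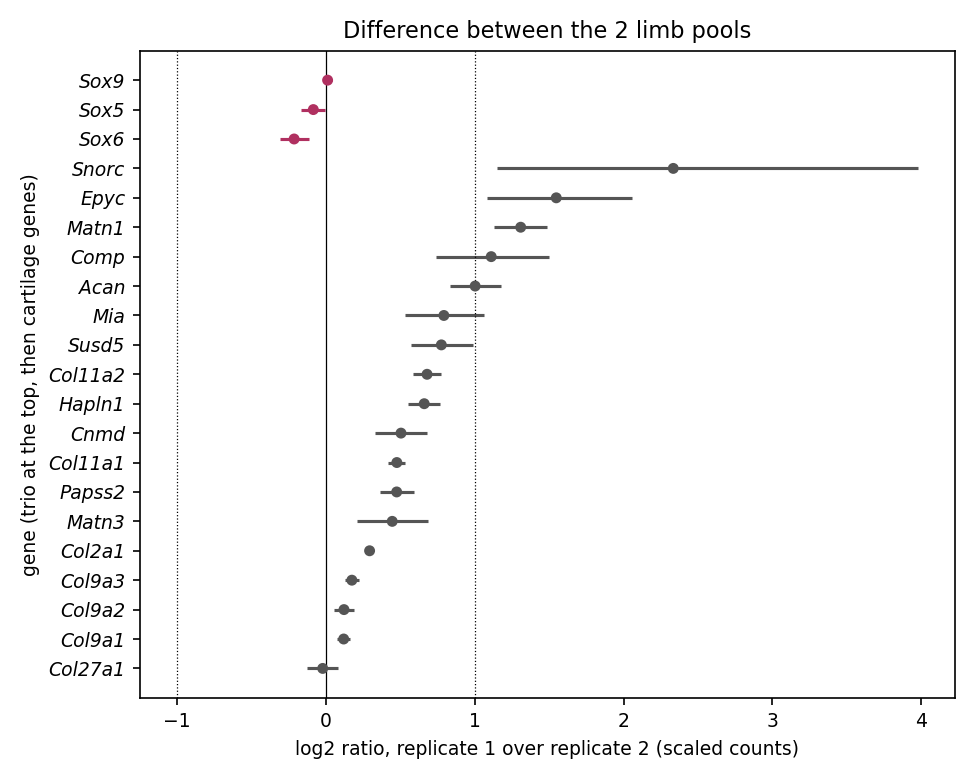
Log2 ratio of replicate 1 over replicate 2 on TMM-scaled counts for Sox9, Sox5 and Sox6 and for 18 cartilage genes, with 95% intervals of counting error and dotted lines at a 2-fold difference. Sox9 lies at 0.01, Sox5 and Sox6 lie at -0.08 and -0.21, and 17 cartilage genes lie to the right of 0.

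Set against Sox9 within each library, the targets spread over a wide range per length. Col2a1 was above Sox9 by a log2 ratio of 1.12 in replicate 1 and 0.84 in replicate 2. Col9a3 was slightly below Sox9, at -0.16 and -0.30. Acan was far below it, at -5.03 and -6.00, and Matn1 at -3.04 and -4.33. Each of these 4 ratios was lower in replicate 2, while Sox9 itself was at 208 and 206 TPM.

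Other cell types and later cartilage stages were measured beside the 3 genes. Limb identity was present, with all 10 mesenchyme genes detected, led by Msx1, Prrx2 and Prrx1 with Hoxa13 lowest, and a summed level of 1185 and 1251 TPM, and none was called. Within that list, genes of limb type, chosen after their values were seen, went in opposite directions. The forelimb gene Tbx5 was at 35.2 and 24.1 TPM, and the hindlimb genes Tbx4 and Pitx1 were at 32.3 and 37.1 TPM and at 142 and 173 TPM. Their part in the differences between the pools was not tested. Of 9 genes of hypertrophic cartilage and bone, 6 reached 1 TPM in both libraries, led by Pth1r (65.6 and 63.5 TPM), Runx2 (9.74 and 6.95 TPM) and Spp1 (4.36 and 4.61 TPM), with Mmp13 listed at 0. Their sum was 93.1 and 82.8 TPM, and 1 of 8 tested, Ibsp (26 and 0 expected counts), was called higher in replicate 1, where 0.727% of all genes were. Of 10 cofactors of Sox9, 9 were detected in both libraries, led by the ubiquitin ligase gene Wwp2 (109 and 107 TPM), Med12 and Zfp219, with Barx2 lowest (1.00 and 0.91 TPM), and none was called. The 5 tendon genes summed to 119.6 and 104.6 TPM with none called, with Tnmd lowest (1.62 and 1.52 TPM). They were led by Scx (69.8 and 60.4 TPM), whose earliest cells in mouse also express Sox9, followed by Mkx (32.97 and 30.02 TPM) and Fmod (12.2 and 10.6 TPM).

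Genes of cells outside the skeleton were also measured. The 8 muscle genes summed to 886 and 862 TPM, led by Actc1, Tnnt1 and Myl1 with Des lowest, and none was called. The 8 erythroid genes summed to 8549 and 8521 TPM, nearly all of it Hbb-y and Hba-x, followed by Alas2, with Gata1 lowest (1.62 and 1.91 TPM), and none was called. The 8 genes of Schwann cell precursors and neural crest summed to 48.3 and 52.1 TPM, with Ngfr, Erbb3 and Fabp7 the highest and S100b the lowest (0.19 and 0.54 TPM). Of these, 1 was called, Fabp7 (2.42 and 7.04 TPM), higher in replicate 2, where 0.969% of all genes were. The 7 neuron genes summed to 51.6 and 69.7 TPM, and 3 of 7 were called higher in replicate 2, where 0.969% of all genes were. The highest, Gap43, was at 24.4 and 22.6 TPM and did not pass the test, with the next, Nefm and Tubb3, at 9.34 and 10.9 TPM and at 7.51 and 12.2 TPM. The called genes were Nefl, Elavl3, the lowest, and Prph. Their levels were 4.19 and 10.5, 0.01 and 0.17, and 0.16 and 3.94 TPM in replicates 1 and 2. Sox6 had its higher value in the same library as these 3 called neuron genes and its lower value in the library with the higher cartilage genes. With 2 libraries each gene has only 1 difference, so a shared direction by itself does not link Sox6 to either set of genes. The part of either set in the Sox6 difference was not tested.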

How the data were processed

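The authors deposited a gene table and a transcript table for each of 2 libraries of 1 group, and their accompanying text files name mm10 and GENCODE M4. Per the file headers, the tables hold expected counts, which are estimated and need not be whole, TPM and FPKM, which are scaled by effective length, and, in percent, each transcript's part of its gene. Per the file headers, they also hold other deposited columns with posterior means and credibility bounds. No source used here gives the aligner, the quantifier or the strand setting. RNA was extracted with a mirVana kit, per the labels' protocols.

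Gene and transcript names, classes and coordinates came from GENCODE M21, of the same assembly, by identifier without version. Of 43346 Ensembl genes, 42462 matched, and 15 of the 20 transcripts of the 3 genes had the same length in both releases. Of the 5 Sox5 transcripts with the HMG box, 2 did. The deposited lengths of Sox5-205 and Sox5-202 were 7069 and 7071 nt, against 3879 and 2526 nt in GENCODE M21. Transcript classes and the exons drawn are those of GENCODE M21, whereas the levels rest on the deposited lengths. Spike-ins and numeric identifiers were left out of library sizes for tests, and Ensembl genes held 96.7% and 97.7% of the counts.

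A quasi-likelihood test (edgeR) needs a second group and was not possible. The deposited expected counts were rounded and compared between libraries by an exact conditional binomial test, two-sided, with Benjamini-Hochberg adjustment over genes with at least 10 summed counts. Log ratios of levels used a pseudocount of 0.1 TPM, and detection meant at least 1 TPM in both libraries. Intervals are exact (95%) and cover counting error only, and no molecular identifiers appear in the files. The libraries were not 1 library deposited again (chi-square per degree of freedom of 6.21). The labels number them as biological replicates.

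Named genes were the members, of each list the 3 highest, the lowest and every called gene, Sox genes with a mean of at least 1 TPM, genes that overlap a member, and within 1 Mb the nearest protein-coding gene on each side and the highest, of which 1 is not reported here. Transcripts named were those with at least 5% of their gene in either library, and the others are named as members of the 3 genes, after their values were seen. Noncoding genes near Sox9 and the limb-type genes Tbx5, Tbx4 and Pitx1 were named outside the rule for genes, after their values were seen. No gene is named for a pattern like that of Sox9, Sox5 or Sox6, since 2 libraries give 1 difference per gene. The members and lists were chosen with earlier results of these data known. The binomial test was tested on simulated data with counting error only. That simulation cannot show how the test does with spread between pools. Tools were Python 3.11.15, numpy 2.4.6, scipy 1.17.1, pandas 2.3.3, Biopython 1.88, matplotlib 3.10.9, R 4.3.3, edgeR 4.0.16 and DESeq2 1.42.0.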

Additional observations from a re-analysis of the deposited data

How the results depend on the processing

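The order of Sox6 and Sox5 turned with the Sox5 transcripts counted. With only transcripts that encode the HMG box, an alternative chosen after seeing the data, Sox5 was at 11.4 TPM in place of 74.2, Sox9 over Sox5 had a log2 ratio of 4.18 in place of 1.48, and Sox6 over Sox5 turned to 0.62. Without length scaling, on expected counts, the log2 ratios were 2.62 for Sox9 over Sox5, 3.18 for Sox9 over Sox6 and -0.56 for Sox6 over Sox5. The transcripts that led in TPM held 3.52% of the Sox5 counts and 25.6% of the Sox6 counts, in place of 25.6% and 49.6% of TPM. They did not lead on counts, where another transcript of each gene held more in both libraries. In FPKM the levels were 130 for Sox9, 46.7 for Sox5 and 11.0 for Sox6. TPM over Ensembl genes only gave 221.6 for Sox9 and 79.45 for Sox5, and posterior means gave 200.8 for Sox9. The other pseudocounts (1 and 0.01) left all 3 ratios within 1 SD. Leaving out each replicate gave 206.3 to 207.7 TPM for Sox9, 72.2 to 76.3 for Sox5 and 16.1 to 19.0 for Sox6.

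Between the libraries no member was called under any scaling, filter or test run with the 2-fold limit, and Sox6 was called without it by the binomial test. The adjusted p of Sox6 was 0.000217 to 0.000547 in the binomial alternatives and 1 in both edgeR exact tests. Genes called numbered 315, and 73 with a minimum of 100 counts, 2993 with no fold limit, and 157 with edgeR's exact test at the common spread (coefficient of variation 0.0718), which was added after seeing the data. With gene-wise spread, edgeR's exact test called 0 of all genes, with 173 at an unadjusted p under 0.05, and 0 of the cartilage list, with 8 at an unadjusted p under 0.05. That spread is estimated from the same difference it tests. The cartilage list had 5 called, 4 with a minimum of 100 counts, 5 at the common spread and 17 with no fold limit. Leaving out a replicate gives no difference between libraries. No paired analysis was possible because there is 1 group.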
